A study of Mus musculus with 4 samples.

Results

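The 9 genes described here carry iron into cells, store it, move it out again and recover it from heme: Tfrc, Slc11a2, Slc11a1, Slc25a37, Fth1, Ftl1, Slc40a1, Hmox1 and Blvrb. They were chosen by gene symbol, not by their values, and all 9 were found among the 32285 genes of the single-cell RNA-seq matrices of the series. The mice were 20-week-old C57BL/6J males, and tissue was collected at week 2. Fracture callus and trabecular bone were each taken from control mice given a placebo and from mice given prednisolone, a synthetic glucocorticoid (GC), at 6.25 mg per kg per day. The labels name a slow-release pellet for both tissues, whereas the study describes a daily injection for the fracture model. Marrow was flushed out, the bone was crushed and digested with enzymes, the fractions were pooled and strained, and 1 10x library was made from each of the 4 groups. The number of mice behind a library is not given in the sources used here. With 1 library in each group, GC treatment and library cannot be told apart, no test was possible, and every interval below is a 95% interval that covers counting error only.

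Iron circulates bound to transferrin, and cells take it up through the transferrin receptor, which Tfrc encodes. Inside the endosome the transporter DMT1, encoded by Slc11a2, passes the iron into the cytosol, and mitoferrin-1, encoded by Slc25a37, passes it on into mitochondria for heme synthesis. Its relative NRAMP1, encoded by Slc11a1, sits in the phagosomes of macrophages and neutrophils. Surplus iron is stored in ferritin, a shell built from heavy chains (Fth1) and light chains (Ftl1), and ferroportin (Slc40a1) is the exporter that returns iron to the plasma. Heme oxygenase-1 (Hmox1) opens the ring of heme and frees its iron, and biliverdin reductase B (Blvrb), which also works as a flavin reductase, acts on the products of heme breakdown. In bone marrow, erythroblasts take up most of the iron and macrophages recover it from old red cells.

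Iron sets the translation or the stability of several of these mRNAs through iron-responsive elements, short hairpins with a CAGTGN loop that iron regulatory proteins hold when iron is scarce. The hairpins are shown because they link uptake, storage and export genes to the iron level of the cell, and because the measurement here is of mRNA and not of protein. On GRCm38 with the GENCODE M21 annotation, the letter C, then 5 bases of any kind, the loop CAGTGN and 5 bases that can pair with the 5 before the loop (G-T pairs allowed, transcript strand only, no other motif searched) were found in the 5′ UTRs of 31 of 20597 genes (0.151%) and in the 3′ UTRs of 129 of 20979 genes (0.615%). Fth1, Ftl1 and Slc40a1 each held 1 in the 5′ UTR, and Tfrc held 4 in the 3′ UTR. The site lay in 4 of 5 annotated coding transcripts of Fth1, 1 of 2 of Ftl1 and 1 of 4 of Slc40a1. Each Tfrc site lay in 1 of 3. No such run was found in the UTRs of Hmox1, Slc11a1, Slc11a2, Slc25a37 or Blvrb, which says only that these letters are not in the annotated UTRs searched. The sites follow in transcript direction with the loop in capitals.
Fth1, 5′ UTR, chr19:9982732-9982760, plus strand: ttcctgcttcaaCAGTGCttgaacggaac
Ftl1, 5′ UTR, chr7:45459779-45459807, minus strand: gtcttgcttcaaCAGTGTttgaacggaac
Slc40a1, 5′ UTR, chr1:45925465-45925493, minus strand: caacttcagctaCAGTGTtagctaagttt
Tfrc, 3′ UTR, site 1, chr16:32631219-32631247, plus strand: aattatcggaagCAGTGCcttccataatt
Tfrc, 3′ UTR, site 2, chr16:32631598-32631626, plus strand: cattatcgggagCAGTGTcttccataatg
Tfrc, 3′ UTR, site 3, chr16:32631663-32631691, plus strand: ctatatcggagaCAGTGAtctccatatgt
Tfrc, 3′ UTR, site 4, chr16:32631710-32631738, plus strand: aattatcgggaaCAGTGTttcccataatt

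On the same build Tfrc lies at chr16:32608920-32632794 on the plus strand, Slc11a2 at chr15:100387898-100425072 on the minus strand, Slc11a1 at chr1:74375195-74386062 on the plus strand and Slc25a37 at chr14:69241848-69285112 on the minus strand. Fth1 lies at chr19:9980598-9985098 on the plus strand, Ftl1 at chr7:45457944-45459884 on the minus strand, Slc40a1 at chr1:45908068-45926523 on the minus strand, Hmox1 at chr8:75093621-75100589 on the plus strand and Blvrb at chr7:27447978-27466144 on the plus strand. No other coding gene overlapped any of them on the same strand. Both ferritin genes have near-identical copies elsewhere in the genome, and how reads were divided among the copies is uncertain. The annotated copy Ftl1-ps1 held between 0.198% and 0.287% as many UMIs as Ftl1 in the 4 libraries.

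After filtering, the callus libraries held 6699 (control) and 6890 (GC) cells and those of trabecular bone 3805 (control) and 4602 (GC), with median depths between 3368.5 and 6301 UMIs (unique molecules) per cell. Cells were clustered within each tissue without the 9 genes, and clusters were named from marker lists, so each name below stands for a class that is like the named type. The shares of cells left unnamed were 2.52% (control) and 7.40% (GC) for callus and 0.762% (control) and 0.652% (GC) for trabecular bone. All 8 erythroblast, 9 mature neutrophil, 6 monocyte, 8 macrophage and 8 osteoclast markers detected in the callus were more than 2-fold higher in their own class than in the median class. Of the 7 early erythroid progenitor markers, 6 were. The same lists had named the clusters, so this is not an independent check of the names. Several clusters came almost wholly from 1 library, and where leaving them out ended a result or moved it past 1.5 times, or no control cell was left, the value without them or that of a shared cluster follows it. Levels are CPM, UMIs of a gene scaled in the usual way by all UMIs summed over a class, and a class needed 15 cells in each library and a gene 50 UMIs over both libraries to be compared. Differences between GC and control are log2 ratios of CPM + 5, which understates differences of low genes, and 1.5-fold was the size past which a difference was counted.

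In the control libraries the levels of the 9 genes followed cell class. Tfrc and Blvrb were high in erythroblasts and early erythroid progenitors, and Slc25a37 in erythroblasts, while callus early erythroid progenitors held 45.9 CPM of it. Hmox1, Ftl1 and Slc11a1 were high in the phagocytes. Fth1 was abundant in every class and highest in mature neutrophils, and Slc40a1 was spread over stromal cells, macrophages and neutrophils. The same division is seen in the map of control levels.

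**Figure D1:**
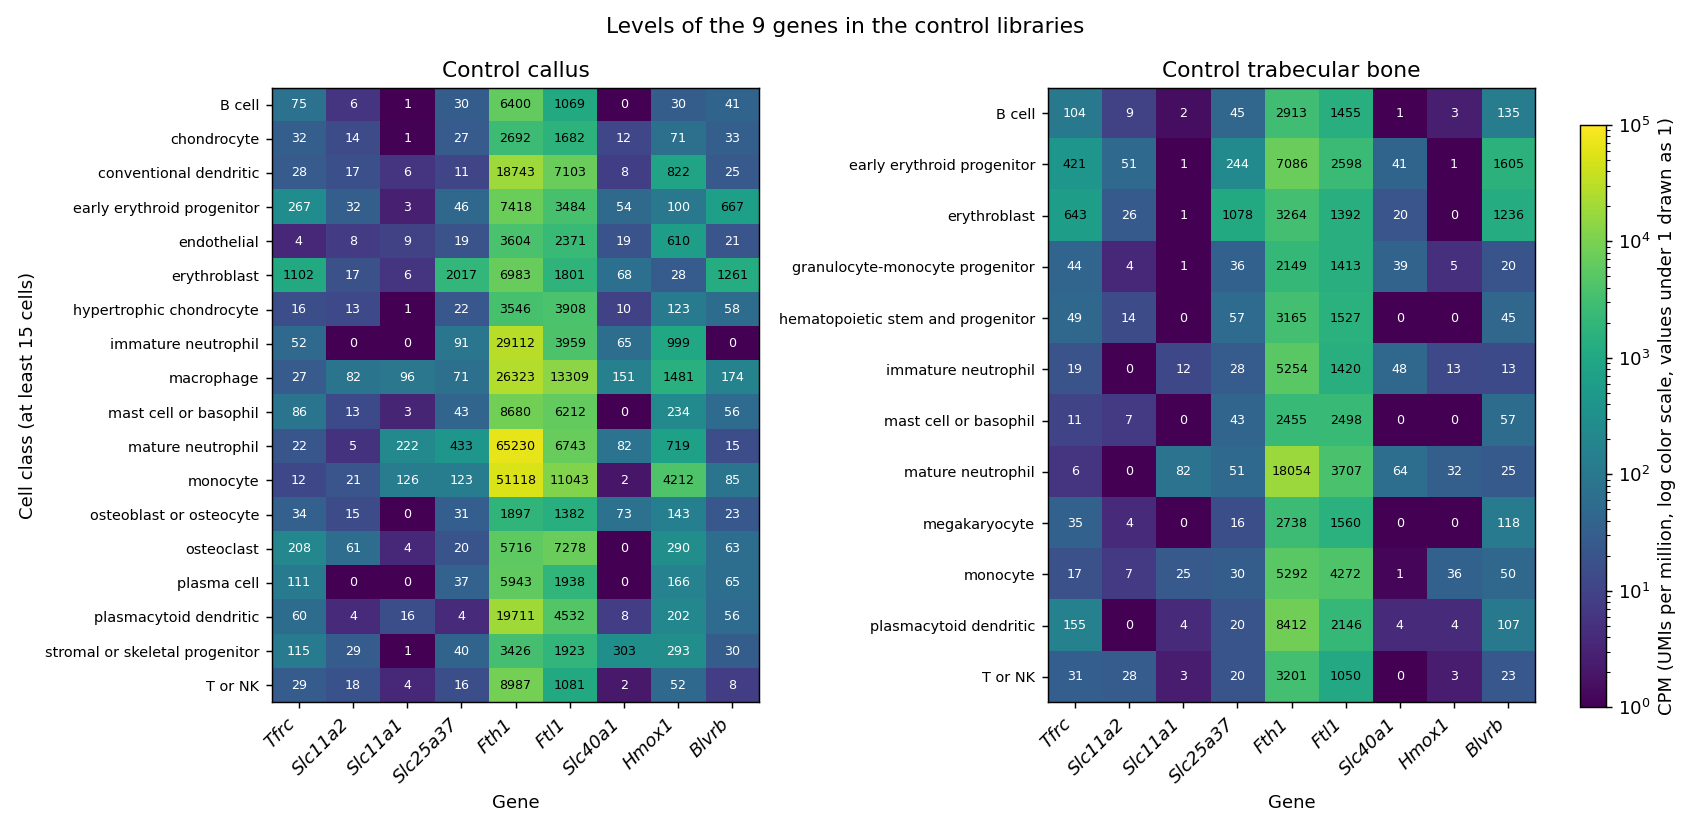
Levels of the 9 genes (columns) in every class with at least 15 cells (rows) in the control callus and the control trabecular bone, as CPM on a log color scale with the value printed in each cell. Hmox1 was 4212 CPM in callus monocytes and 35.7 CPM in trabecular bone monocytes, whereas Tfrc was highest in the erythroblasts of both tissues.

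Over the whole callus, 101 pairs of a gene and a class could be compared across 17 classes. Of these, 20 were at least 1.5-fold higher in the GC library and 8 at least 1.5-fold lower, and the interval of the ratio left out 1 in all 28. The background over all genes was 7.17% of pairs higher and 9.20% lower. In trabecular bone 60 pairs could be compared across 11 classes, of which 4 were higher and 8 lower, against a background of 5.28% and 11.3%. The interval left out 1 in 9 of those 12. The share of all gene and class pairs with an interval off 1 was not computed. The interval counts here and below therefore have no background beside them. Hmox1 supplied 10 of the 20 higher pairs of the callus and 3 of the 4 of trabecular bone.

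**Figure D2:**
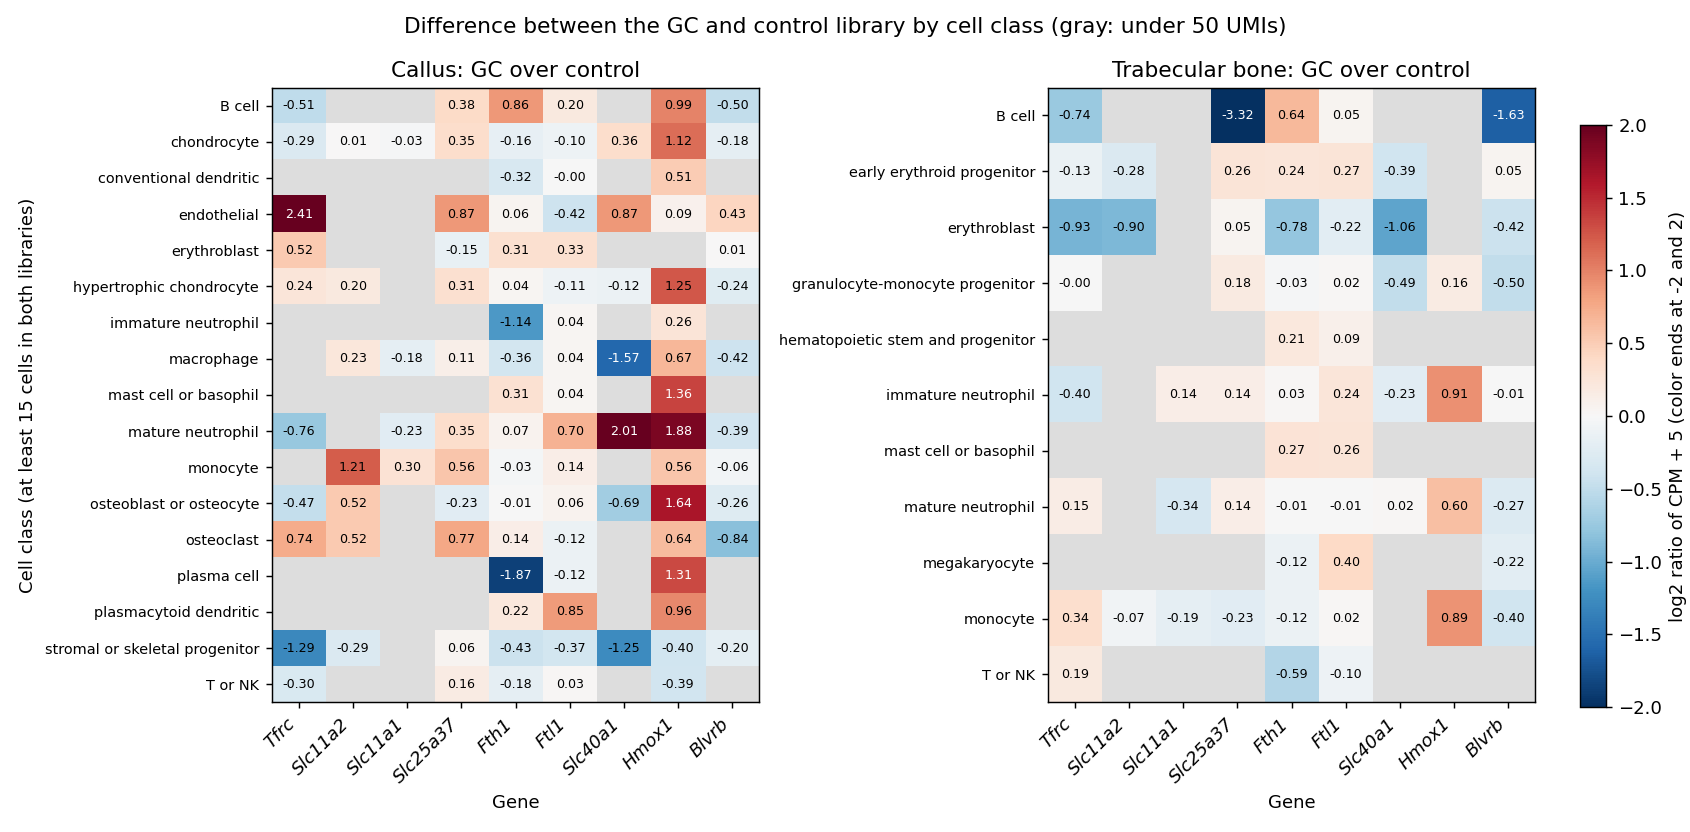
Log2 ratio of CPM + 5, GC over control, for each gene (columns) and class (rows) in callus and trabecular bone. Red is higher in the GC library, blue is lower, gray had under 50 UMIs, and the color ends at -2 and 2. Hmox1 was the red column of the callus, with 14 of 16 classes above 0, and Slc40a1 was both red (mature neutrophils, 2.01) and blue (macrophages, -1.57).

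Tfrc, the transferrin receptor, was 1102 CPM in callus erythroblasts of the control and 1579 CPM in those of GC. Osteoclasts came next among the classes of GC callus, at 352 CPM against 208 CPM in the control. The osteoclast difference was 0.74 on the log2 scale, a ratio of 1.69 with an interval of 1.51 to 1.90. In the osteoclast class, 11.0% of all genes were at least 1.5-fold higher and 5.69% lower. Osteoclasts held 14.1% of the callus Tfrc UMIs in the control and 34.6% in GC, while they held 2.71% and 4.23% of all UMIs. Within cluster 16, which both libraries filled with 110 and 118 cells, Tfrc was 208 CPM in control and 372 CPM in GC, so the difference was not limited to cluster 44, whose 67 cells came from GC alone. The summed chondrocyte markers of the osteoclast class were 2336 CPM in control and 13719 CPM in GC, and their part in these values was not tested.

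Of the 10 callus classes in which Tfrc could be compared, 4 had an interval above 1 and 4 an interval below 1. Stromal or skeletal progenitor cells held 115 CPM in control and 43.8 CPM in GC, a log2 ratio of -1.29. Mature neutrophils held 22.2 CPM and 11.0 CPM, from 54 and 20 UMIs, a log2 ratio of -0.76, but in neutrophil cluster 0, which both libraries filled, 12.2 and 12.1 CPM from 8 and 16 UMIs. Hypertrophic chondrocytes held 15.8 and 19.6 CPM, a ratio of 1.23 with an interval of 1.02 to 1.496. Stromal cells were made up differently in the 2 libraries: cluster 50, in which control Tfrc was 219 CPM, held 36.7% of the class in control and 13.9% in GC. Cluster 11, which held 34.5% and 43.5% of the class, had 41.2 CPM and 33.9 CPM. In endothelial cells there were 2 Tfrc UMIs in control against 83 in GC, 3.79 CPM against 41.8 CPM, a ratio of 11.0 with an interval of 2.96 to 92.7. Only cluster 21 of that class was filled by both libraries, and there Tfrc was 3.79 CPM in control and 15.6 CPM in GC, from 2 and 7 UMIs. The other GC endothelial cells, 92 in cluster 20 and 65 in cluster 68, had no control cell beside them, and the summed chondrocyte markers of the class were 6080 CPM in control and 40523 CPM in GC. Their part in the endothelial values was not tested.

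In trabecular bone, Tfrc was 643 CPM in control erythroblasts and 335 CPM in GC erythroblasts, a log2 ratio of -0.93. Early erythroid progenitors held 421 CPM and 383 CPM, a ratio of 0.91 with an interval of 0.808 to 1.02, which did not show a difference beyond counting error. The erythroblast class was unlike the others in that 80.4% of all genes compared in it were at least 1.5-fold lower in GC and 0.532% higher, and the median log2 ratio of all its genes was -1.03. Read against that background, the lower Tfrc was not particular to the gene. The class held 3 clusters that differ in hemoglobin. Cluster 17 had 31.4% of its UMIs in hemoglobin genes in control and 35.8% in GC, cluster 12 had 73.0% and 69.2%, and cluster 8 had 90.5% and 89.7%. From control to GC, cluster 8 went from 37.1% to 69.1% of the class, cluster 12 from 40.9% to 22.8% and cluster 17 from 22.0% to 8.02%.

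Within those clusters Tfrc was not lower in GC, apart from the most hemoglobin-rich. It was 1389 CPM in control and 1856 CPM in GC in cluster 17, a ratio of 1.34 with an interval of 1.18 to 1.51. In cluster 12 it was 679 CPM and 940 CPM, a ratio of 1.39 with an interval of 1.21 to 1.59. In cluster 8 it was 36.9 CPM and 34.2 CPM, a ratio of 0.925 with an interval of 0.581 to 1.52. The sign of the pooled value was thus opposite to that of the 2 clusters in which the gene was abundant. With hemoglobin left out of the totals the log2 ratio of Tfrc over the class was -0.09. The bars for the 3 clusters show the shift in makeup beside the Tfrc level.

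**Figure D3:**
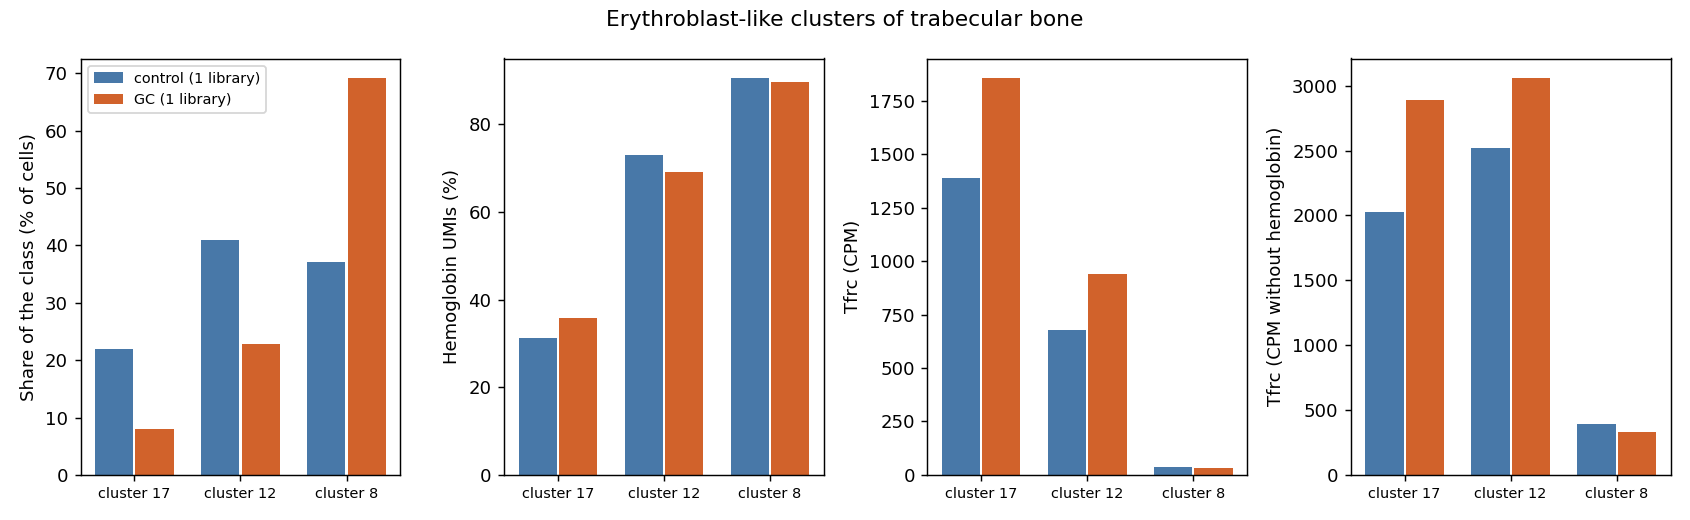
The 3 erythroblast clusters of trabecular bone (horizontal axis) in the control (blue) and GC (orange) library: share of the class in % of cells, hemoglobin share of UMIs in %, Tfrc in CPM, and Tfrc in CPM with hemoglobin left out of the total. Cluster 8 went from 37.1% to 69.1% of the class, and Tfrc there was under 40 CPM in both libraries, whereas in clusters 12 and 17 Tfrc was higher in GC.

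Slc11a2, which encodes DMT1, was a low transcript and could be compared in 7 callus classes and 3 of trabecular bone. Macrophages and osteoclasts led the control callus at 82.3 and 60.8 CPM, with overlapping intervals. Monocytes held 21.03 CPM in control and 55.4 CPM in GC, from 52 and 110 UMIs, a log2 ratio of 1.21 and the only Slc11a2 pair of the callus past 1.5-fold. In the monocyte class, 11.3% of all genes were at least 1.5-fold higher and 9.17% lower, and cluster 4 held 97.2% and 96.0% of the class in the 2 libraries. Osteoclasts held 60.8 and 89.5 CPM, a ratio of 1.47 with an interval of 1.18 to 1.84, and in cluster 16 alone the ratio was 1.64 with an interval of 1.31 to 2.06. In trabecular bone the gene was highest in early erythroid progenitors, 51.2 CPM in control and 41.2 CPM in GC. Erythroblasts held 26.1 and 11.6 CPM, a log2 ratio of -0.90 near the class median of -1.03.

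Slc11a1, which encodes the phagosomal transporter NRAMP1, was a gene of phagocytes in all 4 libraries. In the callus, mature neutrophils held 222 CPM in control and 188 CPM in GC, monocytes 126 and 156 CPM, and macrophages 95.7 and 83.9 CPM. In trabecular bone, mature neutrophils held 81.8 and 63.7 CPM. The 25 GC cells named macrophages held 177 CPM with no comparable control class. They lay in cluster 26, which carried 5 of the 8 macrophage markers. None of these was among its leading genes, which included Clec4a3, Ace and Adgre4. The callus macrophage cluster 19 was led by C1qa, C1qc and C1qb, so the name may cover unlike cells in the tissues. None of the 7 Slc11a1 pairs was past 1.5-fold in either direction. Mature neutrophils held 50.3% and monocytes 29.2% of the control callus UMIs of the gene, with 3.01% and 3.07% of all UMIs.

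Slc25a37, mitoferrin-1, was highest in erythroblasts, at 2017 CPM in control callus and 1819 CPM in GC callus, a ratio of 0.902 with an interval of 0.768 to 1.06. In trabecular bone erythroblasts it was 1078 and 1120 CPM, a ratio of 1.04 with an interval of 0.981 to 1.10, in a class where most genes were lower. Within clusters 8, 12 and 17 of that class it was 341, 1481 and 1597 CPM in control and 746, 2198 and 2331 CPM in GC, so it was higher in GC in each. Outside the erythroid line the gene was most abundant in callus mature neutrophils, at 433 and 551 CPM, which was 8.49 times the trabecular bone neutrophils in control and 9.75 times in GC. The callus pairs past 1.5-fold were osteoclasts, 20.1 and 37.9 CPM, and endothelial cells, 18.9 and 38.8 CPM. In osteoclast cluster 16 the values were 20.1 and 33.7 CPM, and in the shared endothelial cluster 21 they were 18.9 and 28.96 CPM, from 10 and 13 UMIs. The pair of trabecular bone past 1.5-fold was B cells, where GC held no UMI of the gene in 16 cells.

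Fth1, the ferritin heavy chain, reached 65230 CPM in mature neutrophils of control callus and 68360 CPM in those of GC callus, the highest level of any of the 9 genes in any class. Monocytes held 51118 and 49980 CPM and macrophages 26323 and 20449 CPM. All 17 callus classes could be compared, and 1 was at least 1.5-fold higher and 2 lower. The differences in the abundant classes were thus small next to the difference between tissues. Callus monocytes held 9.66 times as much Fth1 as trabecular bone monocytes in control, with an interval of 9.53 to 9.79, and 10.3 times as much in GC. For mature neutrophils the tissue ratio was 3.61 in control and 3.80 in GC. Tissue and library cannot be told apart, since each tissue of a group was 1 library.

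The pairs of Fth1 past 1.5-fold lay outside the mature neutrophils and monocytes, and some of them rest on few cells. Callus B cells held 6400 CPM in control and 11644 CPM in GC, immature neutrophils 29112 and 13171 CPM from 17 and 19 cells, and plasma cells 5943 and 1620 CPM from 42 and 20 cells. The last 2 changed sign under other cell filters, whereas the callus B cell log2 ratio ranged from 0.72 to 2.26 over 18 settings. In trabecular bone, Fth1 was 2913 and 4551 CPM in B cells, of which the GC library had 16 (a log2 ratio of 0.64, and 0.018 without the clusters of 1 library), and 3201 and 2120 CPM in T or NK cells. The T or NK log2 ratio of -0.59 was under 1.5-fold in 9 of 20 settings. The summed mature neutrophil markers of the T or NK class were 36637 CPM in control and 4241 CPM in GC, and the erythroblast markers 1912 and 16579 CPM. Their part in the T or NK value was not tested. Erythroblasts held 3264 and 1897 CPM, a log2 ratio of -0.78 which was 0.07 with hemoglobin left out. Mature neutrophils of trabecular bone held 18054 and 17974 CPM, a ratio of 0.996 with an interval of 0.989 to 1.002.

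Ftl1, the ferritin light chain, followed the phagocytes. In the callus, macrophages held 13309 CPM in control and 13666 CPM in GC, monocytes 11043 and 12169 CPM, and osteoclasts 7278 and 6706 CPM. Mature neutrophils held 6743 and 10932 CPM, a log2 ratio of 0.70, in a class where 12.5% of all genes were at least 1.5-fold higher and 12.4% lower. In cluster 0, the largest neutrophil cluster, Ftl1 was 9822 and 11439 CPM, a ratio of 1.16, and without the clusters of 1 library the log2 ratio of the class was 0.24. Plasmacytoid dendritic cells held 4532 and 8147 CPM, from 52 and 17 cells. No pair was past 1.5-fold in trabecular bone, where monocytes held 4272 and 4333 CPM. Cluster 44, the GC osteoclast cluster of 67 cells, held 946 CPM of Ftl1, against 7859 CPM in the 118 GC cells of cluster 16.

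Slc40a1, ferroportin, differed in opposite directions between callus classes. Mature neutrophils held 81.6 CPM in control and 343 CPM in GC, from 198 and 621 UMIs, a log2 ratio of 2.01 and a ratio of 4.21 with an interval of 3.58 to 4.96. Macrophages held 151 and 47.6 CPM, from 79 and 21 UMIs, a log2 ratio of -1.57. Stromal or skeletal progenitor cells held 303 and 124 CPM, a log2 ratio of -1.25, in a class where 4.47% of genes were at least 1.5-fold higher and 6.73% lower. Osteoblasts or osteocytes held 73.0 and 43.3 CPM, a log2 ratio of -0.69. Stromal cells held 32.4% of the control callus UMIs of the gene (600 UMIs) and 9.49% of those of GC (159 UMIs), and mature neutrophils 10.7% and 37.1%. Chondrocytes, with 62.5% and 47.4% of all callus UMIs, held 31.7% (588 UMIs) and 26.6% (445 UMIs), so in control their share was as large as that of the stromal cells within counting error.

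After each cell was thinned to 1000 UMIs, the share of callus mature neutrophils with a Slc40a1 UMI was 6.52% in control (1411 cells) and 22.6% in GC (1010 cells), and it was 0% in the B cells of both libraries. The unthinned shares were 8.72% and 25.2%, at median depths of 1304.5 and 1175 UMIs, and 287 and 372 shallower cells were left out by thinning. B cells had median depths of 1925 and 1650 UMIs, and their 560 and 343 thinned cells allow shares of up to 0.657% and 1.07%. Within neutrophil cluster 0, with 520 and 1145 cells, Slc40a1 was 114 and 328 CPM, and within cluster 2, with 1061 and 60 cells, it was 60.9 and 182 CPM. Cluster 0 held most GC neutrophils and cluster 2 most control neutrophils, and without clusters of 1 library the log2 ratio was 1.46. In trabecular bone mature neutrophils the gene was 64.4 and 65.2 CPM, a ratio of 1.01 with an interval of 0.906 to 1.13. In erythroblasts it was 20.4 and 7.17 CPM, from 36 and 21 UMIs, a log2 ratio of -1.06. As 80.4% of all genes in that class were at least 1.5-fold lower, this was not particular to Slc40a1.

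The macrophage and stromal differences of Slc40a1 were also present inside the clusters given next. In macrophage cluster 19, with 46 and 55 cells, it was 211 and 59.5 CPM. In stromal clusters 11 and 50 it was 310 and 360 CPM in control and 154 and 174 CPM in GC. Stromal cluster 52, with 19 and 31 cells, was also filled by both libraries, and its values are not given here. Endothelial cells held 18.9 and 38.8 CPM over the class, but in the shared cluster 21 they held 18.9 and 6.68 CPM, from 10 and 3 UMIs. The higher endothelial value therefore came from clusters that held no control cell.

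**Figure D4:**
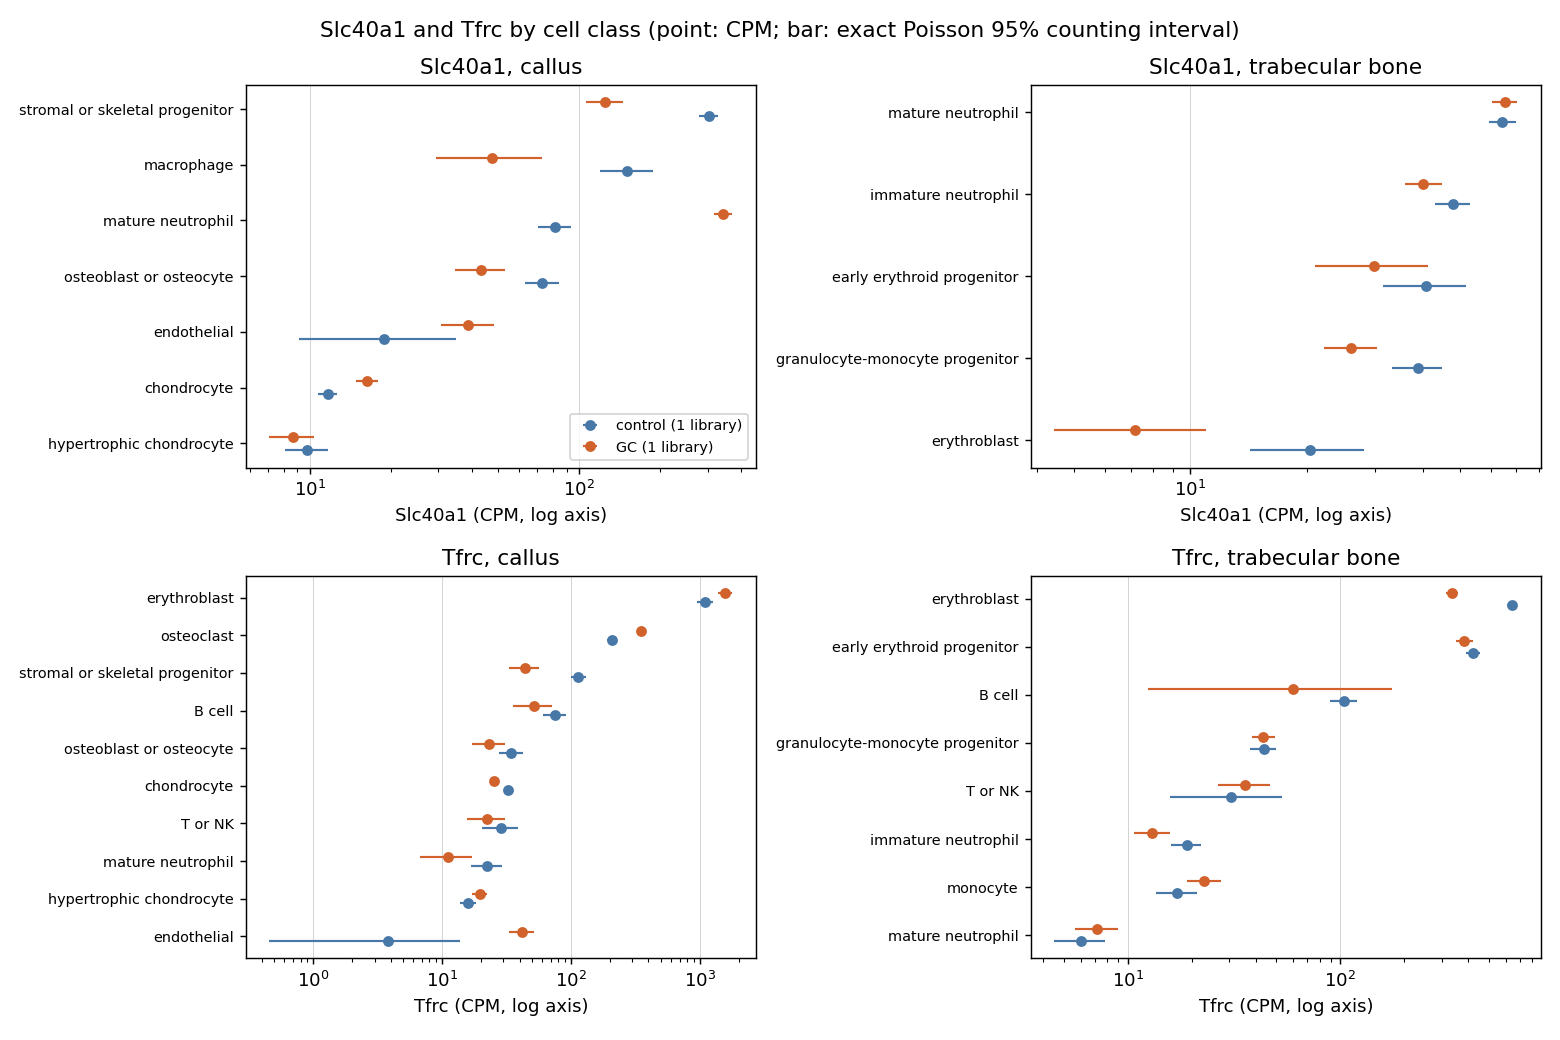
Slc40a1 (top) and Tfrc (bottom) by class in callus (left) and trabecular bone (right), with CPM on a log axis. Points are the control (blue) and GC (orange) library and bars are exact Poisson 95% counting intervals. Slc40a1 went from 81.6 to 343 CPM in callus mature neutrophils and from 151 to 47.6 CPM in macrophages, whereas in trabecular bone mature neutrophils it was 64.4 and 65.2 CPM.

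Hmox1, heme oxygenase-1, was higher in GC in most classes of the callus. Monocytes held the highest level, 4212 CPM in control and 6217 CPM in GC, a log2 ratio of 0.56 and a ratio of 1.48 with an interval of 1.44 to 1.52, just under 1.5-fold. Mature neutrophils held 719 and 2667 CPM, from 1745 and 4828 UMIs, a log2 ratio of 1.88 and a ratio of 3.71 with an interval of 3.51 to 3.92. Macrophages held 1481 and 2352 CPM, a log2 ratio of 0.67. The order of the classes differed between the libraries: in control, neutrophils came after monocytes, macrophages, immature neutrophils and conventional dendritic cells, and in GC they came second, with an interval apart from that of the macrophages. In control the intervals of conventional dendritic cells and mature neutrophils overlapped, so the order between them is not read.

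The skeletal classes showed the same direction for Hmox1 at lower levels. Chondrocytes held 71.3 CPM in control and 161 CPM in GC, a log2 ratio of 1.12, in a class where 1.68% of all genes were at least 1.5-fold higher and 2.39% lower. Hypertrophic chondrocytes held 123 and 299 CPM, a log2 ratio of 1.25. Osteoblasts or osteocytes held 143 and 457 CPM, a log2 ratio of 1.64 and a ratio of 3.19 with an interval of 2.82 to 3.61, and osteoclasts held 290 and 454 CPM over the class and 290 and 443 CPM in cluster 16. A pair of classes ran the other way without passing 1.5-fold, namely stromal or skeletal progenitor cells at 293 and 221 CPM and T or NK cells at 52.2 and 38.6 CPM.

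Among the other callus classes, Hmox1 was at least 1.5-fold higher in mast cells or basophils (234 and 608 CPM, 28 and 28 cells). Plasma cells (166 and 420 CPM, 42 and 20 cells) and plasmacytoid dendritic cells (202 and 399 CPM, 52 and 17 cells) also passed 1.5-fold. So did B cells (30.2 and 64.9 CPM). In the plasma cell class the summed monocyte markers were 277 CPM in control and 688 CPM in GC, and the B cell markers 6930 and 2040 CPM. Their part in the plasma cell value was not tested. In all, 10 of 16 classes were past 1.5-fold higher, none was past it lower, and the interval was above 1 in 12. The 10 include the B cells, for which no order is read below and whose log2 ratio was -0.46 with a UMI cutoff alone. That cutoff trimmed only the control library, since the GC callus matrix was deposited already filtered. Of the 353 genes that could be compared in as many callus classes, 17 (4.82%) were at least 1.5-fold higher in as many classes as Hmox1. Over all callus cells the gene was 279 CPM in control and 589 CPM in GC, a ratio of 2.12 with an interval of 2.08 to 2.15. Monocytes supplied 46.4% of these UMIs in control and 36.6% in GC, and mature neutrophils 7.77% and 14.3%.

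By thinned counts, 28.9% of control and 65.2% of GC callus mature neutrophils had an Hmox1 UMI, against 3.93% and 3.21% of callus B cells, the class used here as a reference for stray RNA. The unthinned shares of neutrophils were 33.6% and 65.5%. The B cell share did not show the direction of the B cell CPM, so no order is read for that class. In monocytes the thinned shares were 77.8% and 91.9%, and in chondrocytes 6.81% and 24.3%. All of these GC shares but that of the B cells were above the control shares with intervals that did not overlap.

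The clusters read here had at least 50 cells, with at least 15 from each library. Inside them Hmox1 was higher in GC in all 3 of mature neutrophils, with the interval above 1. It was higher in 12 of 13 chondrocyte clusters, each with the interval above 1, and in 6 of 7 hypertrophic chondrocyte clusters, 5 with the interval above 1. Stromal or skeletal progenitor cells were divided. Of their 3 clusters of that size, 2 were lower in GC and 1 higher, each with an interval off 1, at ratios from 0.343 to 1.91. Stromal cluster 53, with 21 and 18 cells, was under that size and was not read. The 2 T or NK clusters were lower, at ratios of 0.720 and 0.741 with intervals that held 1. Neutrophil clusters 0, 2 and 12 held 999.6, 489.9 and 2048 CPM in control and 1963, 1452 and 5110.3 CPM in GC. Cluster 55, with 3 and 54 cells, held 5395 CPM in GC. Without the clusters of 1 library the neutrophil log2 ratio was 1.09, the chondrocyte one 0.83 and the hypertrophic chondrocyte one 1.38. Chondrocyte cluster 9, with 1 control and 407 GC cells at a median depth of 2526 UMIs, held 750 CPM, and its part in the class value is removed in that alternative. Chondrocyte cluster 51 held 117.8 and 110.5 CPM, with an interval of the ratio that held 1, and in hypertrophic cluster 31 the direction was opposite, at 97.3 and 65.5 CPM.

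Marker levels of other types moved with these neutrophil values. In callus mature neutrophils the 8 immature neutrophil markers summed to 2980 CPM in control and 6313 CPM in GC with 1 marker at 0 in each library. The 8 macrophage markers summed to 145 and 223 CPM with 1 and 0 at 0, the 6 monocyte markers to 178 and 199 CPM with 0 and 1 at 0, the 8 erythroblast markers to 317 and 838 CPM with 0 and 1 at 0, and the 8 chondrocyte markers to 4395 and 1950 CPM with none at 0. Their part in the Hmox1 and Slc40a1 values was not tested. Of 9 genes known to respond to tissue dissociation, 7 could be compared in these neutrophils, with 1 at least 1.5-fold higher and 3 lower, where 12.5% and 12.4% of all genes were. In callus monocytes 8 of 9 were lower, where 9.17% of all genes were, with a list median of -0.89 against 0.05. The list was also lower in B cells (7 of 9 genes, median -0.95 against -0.17 over all genes). In conventional dendritic cells 6 of 6 were lower (-1.85 against -0.003) and in mast cells or basophils 5 of 5 (-1.99 against -0.13). Over all genes and classes of the callus, 9.20% of pairs were at least 1.5-fold lower. In chondrocytes 1 of 9 was lower and in hypertrophic chondrocytes 0 of 9. The part of handling in these differences was not tested.

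In trabecular bone Hmox1 was low. Monocytes held 35.7 CPM in control and 70.5 CPM in GC, a log2 ratio of 0.89, mature neutrophils 32.0 and 51.2 CPM, a log2 ratio of 0.60, and immature neutrophils 12.5 and 28.0 CPM, a log2 ratio of 0.91. With every cell thinned to 1000 UMIs the monocyte value was 0.043, and over 20 alternatives the 3 values ranged from 0.04 to 1.21, 0.36 to 0.66 and 0.56 to 1.10, with 2, 11 and 1 of them under 1.5-fold. Granulocyte-monocyte progenitors held 4.74 and 5.86 CPM, a ratio with an interval of 0.705 to 2.21. All 4 classes that could be compared were thus above 0, and 3 were past 1.5-fold. In the mature neutrophils of trabecular bone 12.7% of all genes were at least 1.5-fold higher and 2.58% lower, and clusters 0, 1 and 36 held most control cells while clusters 2, 4, 7, 29, 31 and 32 held most GC cells. In clusters 0, 1 and 30, the 3 of these with at least 30 cells of each library, Hmox1 was 34.1, 36.2 and 24.1 CPM in control and 36.1, 43.6 and 52.4 CPM in GC, with intervals of the ratio that held 1. Without the clusters of 1 library the neutrophil log2 ratio was 0.38, under 1.5-fold.

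For Hmox1 the difference between tissues was larger than that between GC and control in monocytes and in both neutrophil classes. Callus monocytes held 118 times the Hmox1 of trabecular bone monocytes in control, with an interval of 102 to 138, and 88.2 times in GC, with an interval of 79.4 to 98.1. For mature neutrophils the ratio was 22.4 in control and 52.1 in GC, and for immature neutrophils 79.9 and 42.7. Tissue and library cannot be told apart here either. The 25 cells named macrophages and the 36 stromal cells of GC trabecular bone held 258 and 210 CPM. The control library had too few cells of either class to compare. The leading genes of that macrophage class held no macrophage marker, as given above.

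**Figure D5:**
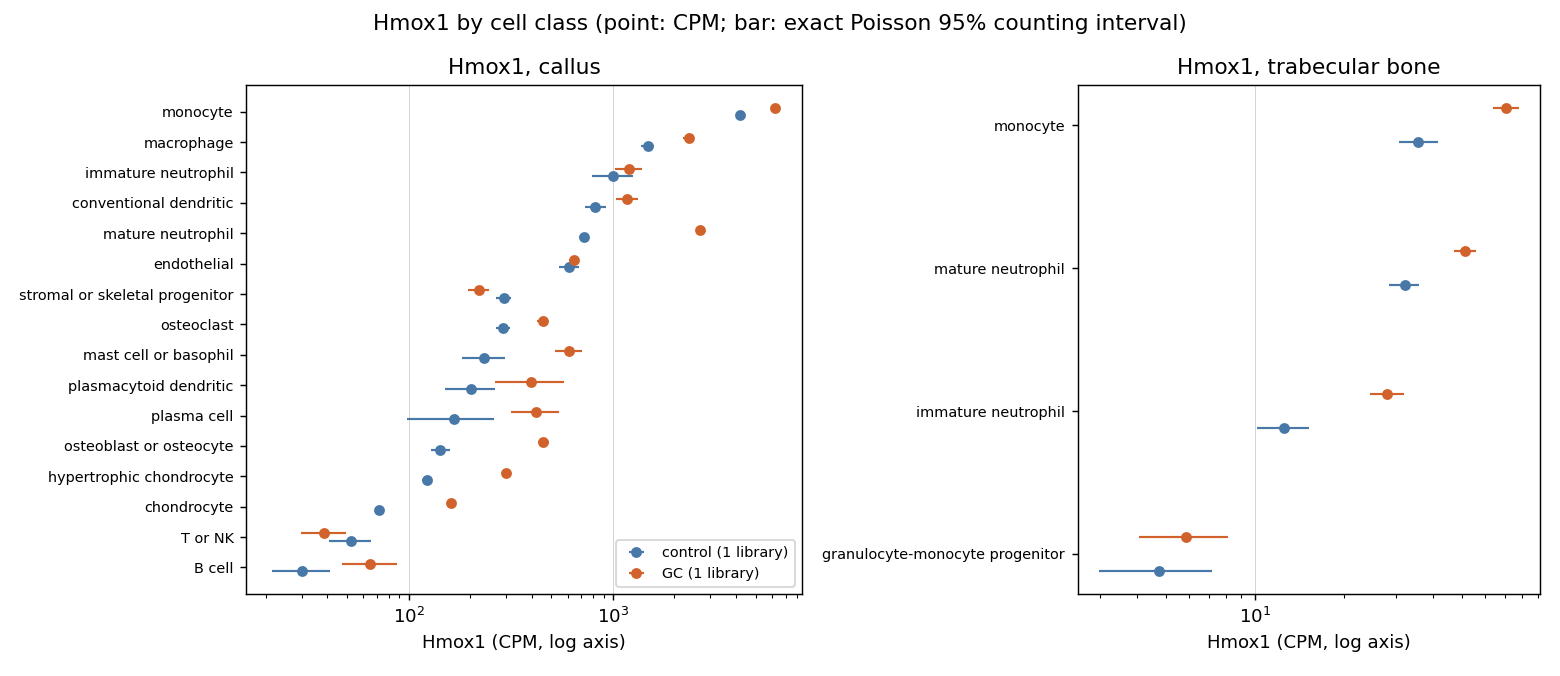
Hmox1 by class in callus (left) and trabecular bone (right), with CPM on a log axis whose range differs between the panels. Points are the control (blue) and GC (orange) library, bars are exact Poisson 95% counting intervals, and classes are ordered by the control level. The GC point lies to the right of the control point in 14 of 16 callus classes and in all 4 classes of trabecular bone.

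Blvrb, biliverdin reductase B, was high in the erythroid classes and low elsewhere. In trabecular bone, early erythroid progenitors held 1605 CPM in control and 1667 CPM in GC, a ratio of 1.04 with an interval of 0.980 to 1.10. Erythroblasts held 1236 and 920 CPM, in a class where 80.4% of all genes were at least 1.5-fold lower. Callus erythroblasts held 1261 and 1273 CPM. The callus pair past 1.5-fold was osteoclasts, 63.1 and 33.0 CPM, a log2 ratio of -0.84, and in cluster 16 alone 63.1 and 38.1 CPM. The trabecular bone pair past it was B cells, with 258 and 2 UMIs and an interval of the ratio that held 1.

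That B cell class of trabecular bone held 319 control cells and only 16 GC cells, and its 4 pairs past 1.5-fold rest on them. Tfrc had 199 and 3 UMIs there and Slc25a37 had 86 and 0 UMIs. A count of 0 allows up to 3 UMIs, or 60.2 CPM, above the control level of 44.9 CPM, so no fold is given for Slc25a37 although it is among the 8 lower pairs. The B cell intervals of Tfrc, Slc25a37 and Blvrb held 1, and these are the 3 pairs of trabecular bone for which that was so. Clusters 16 and 22, with 142 and 78 control B cells, held no GC cell. Without the clusters of 1 library these 3 pairs had too few UMIs to be compared. The summed erythroblast markers of the class were 7692 CPM in control and 2787 CPM in GC, and the mature neutrophil markers 6905 and 2607 CPM. Their part in the B cell values was not tested.

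Other genes of iron and heme handling were counted by list. In callus mature neutrophils, 10 genes of the Nrf2 and Bach1 axis could be compared. Of these, 6 were at least 1.5-fold higher in GC and none lower, where 12.5% and 12.4% of all genes were. The list median was 0.62 against 0.00 over all genes. Nrf2 (Nfe2l2) activates Hmox1 and antioxidant genes, and Bach1 is the repressor that heme releases. Nfe2l2 was 267 CPM in control and 472 CPM in GC, Bach1 467 and 746 CPM, and Keap1, which holds Nrf2 in check, 12.4 and 21.6 CPM. Of the genes Nrf2 is known to drive, Gclm was 126 and 321 CPM, Prdx1 111 and 175 CPM, and Gclc was 37.1 CPM in control and 2.70 times that in GC. Hence both the activator and the repressor were higher over the class. The rest of the 10 genes came from Nqo1, Txnrd1, Srxn1, Slc7a11 and Gsr, and they were within 1.5-fold. Without the clusters of 1 library, 3 of 9 genes of the axis were higher and none lower, with a median of 0.42 against 0.08 over all genes. The share of all genes past 1.5-fold was not computed for that reduced set. Nfe2l2, Gclm and Gclc were the 3, while Bach1 (584 and 787 CPM) and Prdx1 (132 and 178 CPM) were under 1.5-fold.

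The remaining lists showed single genes in callus neutrophils. The heme exporter Flvcr1 was 37.5 CPM in control and 80.1 CPM in GC, and the heme transporter Slc48a1 13.2 and 33.7 CPM. Transferrin itself (Trf) was lower, 217 and 140 CPM, as were the iron importer Slc39a14 (51.1 and 29.8 CPM), the iron sensor Fbxl5 (187 and 113 CPM) and the iron-sulfur scaffold Iscu (147 and 60.2 CPM). Without the clusters of 1 library Flvcr1 was 40.8 and 78.5 CPM and Slc48a1 12.2 and 33.2 CPM, whereas the log2 ratios of Trf (-0.28), Slc39a14 (-0.54), Fbxl5 (-0.078) and Iscu (-0.43) were all under 1.5-fold. None of the 3 storage genes that could be compared was past 1.5-fold.

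Callus monocytes shared part of this. There 3 of 11 genes of the Nrf2 and Bach1 axis were higher and none lower, where 11.3% and 9.17% of all genes were. The list median was 0.26 against 0.05 over all genes. Nfe2l2 was 346 CPM in control and 540 CPM in GC, Nqo1 12.1 and 29.2 CPM and Prdx1 1915 and 3342 CPM. Spic, the transcription factor of iron-recycling macrophages, was 31.6 and 77.5 CPM, Slc48a1 60.7 and 129 CPM, and Iscu 126 and 73.0 CPM.

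In macrophages of the callus 2 of the 9 genes of that axis were higher and 1 lower, in a class where 11.9% of all genes were higher and 8.98% lower. In chondrocytes 1 of 11 was higher and 1 lower, against 1.68% and 2.39% of all genes, with a list median of 0.07 against 0.01. Ceruloplasmin (Cp), the ferroxidase that helps ferroportin release iron, was higher in several skeletal classes of GC callus: chondrocytes 49.0 and 93.0 CPM, hypertrophic chondrocytes 172 and 277 CPM, osteoblasts or osteocytes 45.1 and 96.3 CPM and stromal or skeletal progenitor cells 89.8 and 208 CPM. Slc40a1 was lower past 1.5-fold in the last 2 of these 4 classes and not in the first 2, where it was 11.7 and 16.4 CPM (chondrocytes) and 9.78 and 8.63 CPM (hypertrophic chondrocytes).

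Trabecular bone gave another picture. In its mature neutrophils none of 10 genes of the Nrf2 and Bach1 axis was at least 1.5-fold higher, and Slc7a11, the cystine importer, was lower at 623 CPM in control and 316 CPM in GC. All 3 storage genes that could be compared were higher: Ncoa4, which takes ferritin to the lysosome, at 41.9 and 71.2 CPM, and the iron chaperones Pcbp1 (54.0 and 87.7 CPM) and Pcbp2 (146 and 224 CPM). Haptoglobin (Hp) was 1638 and 2980 CPM and Fbxl5 364 and 645 CPM, while Trf was 113 and 68.6 CPM and the metalloreductase Steap4 27.7 and 13.4 CPM. In that class 12.7% of all genes were at least 1.5-fold higher and 2.58% lower. The class median was 0.24, so a part of these higher values was shared by all genes there. Without the clusters of 1 library, which left 731 control and 198 GC cells, none of the 3 storage genes was past 1.5-fold: Ncoa4 was 44.7 and 64.5 CPM, Pcbp1 49.7 and 63.1 CPM and Pcbp2 137.5 and 137.8 CPM. Fbxl5 was then 379 and 536 CPM and Steap4, with 19 and 20 UMIs, could not be compared. Slc7a11 (369 and 177 CPM) and Trf (107 and 35.5 CPM) stayed lower and Hp (1667 and 2649 CPM) higher past 1.5-fold, and 1 gene of the Nrf2 and Bach1 axis was higher and 3 lower of 8. The share of all genes past 1.5-fold was not computed for these cells. Fbxl5 was also higher in trabecular bone monocytes, at 40.6 and 95.2 CPM, in a class where 1.28% of all genes were higher and 2.06% lower. The list of genes known to respond to glucocorticoid was at least 1.5-fold higher in 4 of 7 genes over all trabecular bone cells, where 1.47% of all genes were (1.83% were lower), with a list median of 1.05 against -0.02 over all genes. Over all callus cells 1 of 7 was higher, where 1.63% of all genes were (1.49% were lower), with a median of 0.35 against 0.03.

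Across the 61 combinations of class and library, the genes whose levels most resembled each member were found by Pearson's r among 11520 genes. These are descriptions, since the points share libraries, depth and cell types. Tfrc was most like Psme3 (0.79), Abcb4 (0.79) and Ubac1 (0.78), Slc40a1 like Tnfaip2 (0.67), Nudt4 (0.64) and Noct (0.63), and Slc11a2 like Parvb (0.73), Afg3l2 (0.72) and Spire1 (0.70). The genes most like Slc25a37 included Gm16867 (0.88) and Sowaha (0.75), and Blvrb was most like Tspan33 (0.87), Slc38a5 (0.85) and the erythropoietin receptor gene Epor (0.85). Fth1 was most like Tmem189 (0.82), Hnrnph2 (0.81) and Rab8b (0.80), Ftl1 like Havcr2 (0.79), Esd (0.79) and Gab2 (0.79), Hmox1 like Sh3bp2 (0.84), Cltc (0.82) and Kif1c (0.81), and Slc11a1 like Il1a (0.91), Pla2g7 (0.91) and Sirpb1c (0.90). Among the members themselves, the r was 0.75 between Fth1 and Ftl1, 0.71 between Ftl1 and Hmox1, 0.67 between Tfrc and Blvrb and -0.25 between Hmox1 and Blvrb.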

How the data were processed

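Single-cell libraries from callus and trabecular bone were read as the deposited count matrices, in which the authors give UMI counts per gene and barcode, not normalized. The submitters' processing notes name Cell Ranger 5.0.1, Seurat 3.2.0 and mm10, and the file headers name an earlier Cell Ranger release. The GC callus matrix was deposited already filtered, with 7762 barcodes of at least 500 UMIs, whereas the other 3 listed 6794880 barcodes. In those 3, barcodes over 10% of the 99th percentile of UMIs among the top 3000 were called cells, as were smaller ones of at least 500 UMIs whose profile differed from barcodes ranked 45001 to 90000 (false discovery rate 0.01). Barcodes with under 200 genes or over 10% mitochondrial UMIs were removed, and a doublet score removed 0.8% of barcodes per 1000 called. The 4 libraries then held 6699, 6890, 3805 and 4602 cells. Between 7 and 15 barcodes were shared by any 2 libraries, at most 0.270% of the smaller.

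Each tissue was clustered on 2000 variable genes without the 9 members and the listed genes (30 components, 15 neighbors, Leiden resolution 1). A cluster took the name of the class for which at least 3 markers were over 2-fold higher, a rule set after the clusters were seen. Counts were summed by class, CPM was computed with exact Poisson intervals and ratios with exact conditional intervals (scipy 1.17.1), and shares of cells with Clopper-Pearson intervals after thinning to 1000 UMIs. The CPM and ratio code was tested on simulated data. The members, gene lists and alternatives were chosen with earlier results of these data known. Named genes were all 9 members, listed genes past 1.5-fold in the classes described, and the 3 genes most like each member, of which 1 is not reported here. Sequences came from GRCm38 with GENCODE M21.

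In all, 20 alternatives were planned and 1, leaving out clusters with at least 90% of cells from 1 library, was added after seeing the data. There was no replicate library, so no test was run.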

Additional observations from a re-analysis of the deposited data

Results flagged for a closer look

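In 4 cases a gene differed in opposite directions between the tissues, each with an interval off 1 in both, although each direction rests on 1 library pair and the difference between the tissues was not tested. In erythroblasts, Tfrc had a log2 ratio (GC over control) of 0.52 in callus and -0.93 in trabecular bone. Fth1 in the same class had 0.31 in callus and -0.78 in trabecular bone, and Ftl1 had 0.33 and -0.22. Erythroblasts numbered 52 and 69 in the callus libraries, and in trabecular bone the hemoglobin-rich cluster 8 made up more of the class in GC, as given above. In that trabecular bone class 80.4% of all genes were at least 1.5-fold lower in GC, so the lower values were not particular to these genes. With hemoglobin left out of the totals, Tfrc there was nearly level and Fth1 was no longer lower, as given above. Fth1 in immature neutrophils had -1.14 in callus, from 17 and 19 cells, and 0.030 in trabecular bone.

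Barcodes with under 200 genes had been left out as cells, and their UMIs were mostly hemoglobin, with a median share between 88.7% and 93.3%. In trabecular bone, 687 such barcodes of GC held Fth1 at 817 CPM and 198 of control at 705 CPM, a ratio of 1.16. Slc25a37 was 748 CPM in the same GC barcodes and 411 CPM in those of control, a ratio of 1.82. In callus, Blvrb was 234 CPM in 233 barcodes of GC and 110 CPM in 136 of control, a ratio of 2.14, from 103 and 23 UMIs. Hmox1 had at most 7 UMIs in the barcodes of any library.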

How the results depend on the processing

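Of the 40 ratios past 1.5-fold, 15 kept their sign and stayed past 1.5-fold in every setting that gave a value, 32 kept their sign and 8 changed it in at least 1 setting. Hmox1 in callus mature neutrophils ranged from 1.09 to 3.13 on the log2 scale, Slc40a1 there from 1.46 to 3.83, and Tfrc in osteoclasts from 0.68 to 0.91. The 20 higher callus pairs were 12 with at least 200 UMIs per pair and 9 at a 2-fold limit. The 8 lower callus pairs were 5 at 2-fold, 13 with cells thinned to 1000 UMIs, 13 with a UMI cutoff alone, 14 with at least 500 genes per cell and 15 with at most 5% mitochondrial UMIs. The 4 higher pairs of trabecular bone were 2 with a pseudocount of 20 CPM, 0 at 2-fold, 7 centred on the class median, 2 by the mean CPM per cell and 2 without clusters of 1 library. The 8 lower ones were 5 with 200 UMIs, 3 at 2-fold, 4 without hemoglobin, 2 centred, 5 by the mean per cell, 1 with 500 genes, 5 with doublets kept and 13 with the empty-droplet background taken off. Sign changes were as follows, and the cause was not tested. In trabecular bone erythroblasts Fth1 was 0.065 without hemoglobin, 0.25 centred and 0.12 with 500 genes, Tfrc 0.10 centred, and Slc11a2 0.13 centred and 0.030 thinned. In callus, Slc40a1 was 0.022 in osteoblasts or osteocytes when thinned and -0.0035 in endothelial cells with a UMI cutoff alone, and Hmox1 in B cells was -0.46 with that cutoff. Fth1 in plasma cells was 0.89 with 500 genes, 0.74 with no gene minimum, 0.015 with at most 5% mitochondrial UMIs and 0.87 with doublets kept, and in immature neutrophils 0.38 and 0.14 with at most 5% and 20% mitochondrial UMIs. Leaving out clusters of 1 library removed 21.2% and 22.3% of callus and 39.5% and 58.3% of trabecular bone cells. The background could not be taken off in callus, where the GC matrix held no empty droplets. In callus the UMI cutoff alone kept 2998 of 7386 called control barcodes and every GC barcode, as the GC matrix came filtered. Callus values under that setting therefore set deep control cells against GC cells of all depths. No paired analysis was possible because each group had 1 library.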
